A study of Homo sapiens with 6 samples.

Results

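Lewis antigen and glycan branching enzymes were examined in 6 BxPC-3 xenograft tumors. The set held 10 genes, namely FUT1, FUT2, FUT3, FUT4, FUT6, B3GALT5, ST3GAL3, ST3GAL4, ST6GALNAC1 and GCNT3. They were measured by every non-control probe that carried one of these symbols, which gave 14 of the 50599 probes on the array. Of these, 13 probes of 9 genes passed the detection filter (on each of the 6 arrays, a p-value under 0.05 against the local background) and were tested, among 31807 tested probes of 22718 genes. B3GALT5 did not pass and is described without a test.

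The comparison asked how gene expression in the tumors differed after deferasirox (DFX), an oral iron chelator. BxPC-3, a cell line from a human pancreatic adenocarcinoma, was grown under the skin of female BALB/c (nu/nu) mice aged 8 to 10 weeks at the start. Treatment began at a tumor volume of 150 mm3 and ran for 21 days by oral gavage every second day, with saline alone in the control group (3 tumors) and 200 mg/kg DFX suspended in saline in the DFX group (3 tumors). Every tumor came from the same cell line, the host lacks mature T cells, and host tissue in the tumor could add mouse RNA to a human array. Cross-hybridization of mouse RNA was not tested. One tumor was hybridized per array, and all arrays lay on 1 slide with the control tumors in row 1 and the DFX tumors in row 2, so row and treatment cannot be told apart. Levels are given below as quantile-normalized log2 intensity, and differences as DFX minus control on that scale. Because a probe's brightness depends on its sequence, levels were not compared between probes.

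Lewis antigens are short fucosylated sugar chains at the ends of glycans on mucins, other glycoproteins and lipids. B3GALT5 builds the type 1 chain, ST3GAL3 and ST3GAL4 add sialic acid, and the fucosyltransferases FUT3, FUT4 and FUT6 add the fucose that completes Lewis a, Lewis x and their sialylated forms, while FUT1 and FUT2 make the H antigen on the same precursors. Sialyl Lewis a is the epitope of the serum marker used in pancreatic cancer, and both sialylated forms are bound by selectins. ST6GALNAC1 and GCNT3 act on the core of mucin O-glycans, where the first makes the sialyl-Tn antigen and the other adds branches.

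Each array probe was a 60-base oligonucleotide, and the sequences that bear on how far a value can be read are shown 5′ to 3′. Positions on hg19 were taken from the array annotation, and each probe was assigned by the array's design to a transcript of its gene (for 1 ST3GAL4 probe, a cDNA clone). Exon and UTR boundaries on hg19 were not analysed here. FUT3 and FUT6 are closely related paralogs that lie close together. Their probes were at chr19:5843092-5843151 for FUT3 and at chr19:5831537-5831596 for FUT6 A_33_P3222228, both on the minus strand. Cross-hybridization between these paralogs was not tested. The first 30 bases are given for FUT3 and FUT4, and the whole oligonucleotide for that FUT6 probe and for GCNT3.
FUT3: caccacttatagggtacaggtgggatcgac
FUT6 A_33_P3222228: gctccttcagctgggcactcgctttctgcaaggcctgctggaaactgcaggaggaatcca
FUT4 (chr11:94282932-94282991, plus strand): gtcaagatgtcaagtcatttttgaatgtgt
GCNT3 (chr15:59911364-59911423, plus strand): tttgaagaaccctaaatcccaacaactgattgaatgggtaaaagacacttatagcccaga
The other FUT6 probe, A_33_P3210288, shared a run of at least 16 bases with 21 probes of other genes, and the longest such run was 30 bases. Its signal can therefore hold transcripts other than FUT6, and it was kept apart from A_33_P3222228 throughout. A pair of the 3 ST3GAL3 probes overlapped by 51 bases, shown in capitals, and so measured nearly the same stretch of the transcript.
ST3GAL3 A_24_P268123 (chr1:44395824-44395883, plus strand): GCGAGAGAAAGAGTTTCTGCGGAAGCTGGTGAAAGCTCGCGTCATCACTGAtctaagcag
ST3GAL3 A_33_P3405966 (chr1:44395815-44395874, plus strand): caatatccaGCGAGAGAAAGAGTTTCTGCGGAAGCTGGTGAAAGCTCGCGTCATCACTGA
The remaining probes lay at chr19:49251268-49251325 for FUT1, chr19:49208861-49208920 for FUT2, chr21:41033636-41033695 for B3GALT5, chr1:44396560-44396619 for ST3GAL3 A_23_P200999, chr11:126283477-126283536 and chr11:126310189-126310248 for ST3GAL4, and chr17:74621111-74621170 for ST6GALNAC1.

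Across the series, 2675 of 31807 probes differed at an unadjusted limma p under 0.05, which is 8.41% of them, and 0 passed after Benjamini-Hochberg adjustment, where the lowest adjusted p was 0.0675. In what follows, called means this unadjusted threshold. Of these calls, 58.8% were lower in DFX tumors under quantile normalization, 42.6% under scaling to the 75th percentile and 71.8% under scaling to the median, which moved the median difference of all tested probes to -0.10. Between 50.3% and 56.5% of probes were well above background per array, and array correlations were 0.980 to 0.990. All 6 ductal epithelial markers (KRT7, KRT8, KRT18, KRT19, EPCAM and CDH1) were well above background in every tumor. Their summed linear level was 6.19e+05 to 6.24e+05 in control and 6.31e+05 to 6.43e+05 in DFX tumors. This sum and the marker sums below weigh the brightest probes most, here KRT19 (control mean 18.47) and KRT7 (17.03). Such a sum is not a measure of cell content. KRT8, KRT18 and EPCAM were called higher (differences 0.48, 0.27 and 0.43), of which EPCAM was also called without control replicate 3. The tumor of control replicate 3 stood apart from the other control tumors for several of the enzymes, and their differences are given with and without it.

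FUT4 was the only probe of the set that was called, and it was called higher. FUT4, which adds fucose in α1,3 linkage and mainly makes Lewis x, had levels of 8.80, 9.06 and 8.95 in control and 9.37, 9.35 and 9.09 in DFX tumors. The groups did not overlap, but control replicate 2 and DFX replicate 3 lay next to each other. The mean rose from 8.93 ± 0.13 (SD, n = 3) to 9.27 ± 0.16 (SD, n = 3). The difference was 0.34 (SE 0.13, 95% interval 0.02 to 0.66), a 1.26-fold change, with an unadjusted limma p of 0.0426 and an adjusted p of 0.582. The call was lost in 8 of 20 alternatives, among them scaling to the median (difference 0.23, unadjusted limma p of 0.206) and leaving out control replicate 1 (0.27, p of 0.123), control replicate 3 (0.34, p of 0.0758), DFX replicate 1 (0.29, p of 0.132) or DFX replicate 2 (0.30, p of 0.117). FUT4 is also made by leukocytes, which in these tumors come from the mouse host. How far human probes measure mouse leukocytes, and the part of these cells in the FUT4 difference, was not tested. Of the 4 tested leukocyte markers (PTPRC, CD68, CD14 and ITGAM), 0 were called. Their summed level was 1898 to 2248 in control and 1991 to 2360 in DFX tumors. In RNA from a whole tumor, fewer cells of a type and less RNA per cell cannot be told apart.

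FUT3, the Lewis enzyme that completes Lewis a and sialyl Lewis a, was higher in all 3 DFX tumors than in any control tumor but was not called. Its levels were 11.03, 10.73 and 10.10 in control and 11.06, 11.08 and 11.23 in DFX tumors. Control replicate 1 was just below the lowest DFX tumor, and control replicate 3 was the lowest tumor by a wide margin. The difference was 0.50 (SE 0.25, 95% interval -0.10 to 1.104), a 1.42-fold change between means of 10.62 ± 0.48 and 11.12 ± 0.09 (SD, n = 3 each). The unadjusted limma p was 0.0855 and the adjusted p 0.635. Without control replicate 3 the difference was 0.24 (SE 0.14). Without control replicate 1 it was 0.71, with an unadjusted limma p of 0.0228.

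FUT6, which makes sialyl Lewis x by the same α1,3 linkage, gave a similar order of tumors on its probe A_33_P3222228. The levels were 7.28, 7.18 and 6.06 in control and 7.40, 7.51 and 7.29 in DFX tumors. The groups just failed to overlap, since control replicate 1 was 7.28 and DFX replicate 3 was 7.29. The difference was 0.56 (SE 0.33, 95% interval -0.25 to 1.38), with an unadjusted limma p of 0.143. Without control replicate 3 it was 0.17 (SE 0.12). The FUT6 probe A_33_P3210288 stayed between 17.71 and 17.90 in all 6 tumors, with a difference of 0.06 (SE 0.10). For very bright probes quantile normalization can give arrays the same value (17.7207 in control replicates 2 and 3), which can narrow this range. The difference was 0.11 under scaling to the 75th percentile and 0.01 under scaling to the median.

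Neither of the H antigen enzymes was called. FUT1, which was printed as 10 spots on each array, had levels of 11.41, 11.51 and 11.82 in control and 11.57, 11.54 and 11.36 in DFX tumors, so the groups overlapped. The spots of FUT1 on 1 array differed by an SD of 0.033 to 0.073, less than the spread between tumors. The difference of -0.09 (SE 0.14) had a 95% interval from -0.44 to 0.26, which still allows a change of either sign. FUT2, the secretor enzyme of mucosal epithelium, had levels of 7.31, 6.99 and 5.72 in control and 7.12, 7.15 and 7.21 in DFX tumors. The DFX tumors and 2 of the control tumors were alike, and control replicate 3 was far below them. With it, the FUT2 difference was 0.49 (SE 0.40, 95% interval -0.50 to 1.47), and without it 0.01 (SE 0.14).

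B3GALT5, the galactosyltransferase that builds the type 1 chain on which Lewis a is made, was not well above background on any array. It was also printed as 10 spots, of which 8 to 10 were used per array, and its levels were 3.35, 3.05 and 2.15 in control and 3.13, 2.38 and 2.58 in DFX tumors. These values overlapped and have no reliable order, since none was well above background. The spots on 1 array differed by an SD of 0.29 to 0.80.

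The α2,3-sialyltransferases showed small differences of either sign. On ST3GAL3 A_23_P200999 the levels were 8.21, 8.43 and 8.46 in control and 8.29, 8.56 and 8.32 in DFX tumors, with a difference of 0.03 (SE 0.13). The overlapping pair of ST3GAL3 probes was dim. A_24_P268123 was well above background in 2 control and 0 DFX tumors, and A_33_P3405966 in none. Their differences were 0.00 (SE 0.47, 95% interval -1.15 to 1.15) and -0.16 (SE 0.36, 95% interval -1.03 to 0.71). These intervals allow a sizable change of either sign, and both differences changed sign under several alternatives. ST3GAL4, which sialylates type 2 chains on the way to sialyl Lewis x, had levels of 10.47, 10.68 and 10.66 in control and 10.40, 10.66 and 10.35 in DFX tumors on probe A_24_P181055. The groups overlapped, and the difference was -0.13 (SE 0.13, unadjusted limma p of 0.345). The second ST3GAL4 probe, A_33_P3309289, gave 0.05 (SE 0.21).

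The mucin O-glycan enzymes of the set were marked by control replicate 3. ST6GALNAC1, which caps the first sugar of mucin O-glycans to give sialyl-Tn, had levels of 12.79, 12.21 and 11.18 in control and 12.53, 12.62 and 12.57 in DFX tumors. The DFX tumors were nearly identical and lay between control replicates 1 and 2. The difference was 0.51 (SE 0.40, 95% interval -0.45 to 1.48) with all tumors, 0.07 without control replicate 3, and 0.88 without control replicate 1, where the unadjusted limma p was 0.0396. GCNT3, which makes core 2, core 4 and I branches, had levels of 8.28, 8.58 and 6.85 in control and 8.10, 8.30 and 7.80 in DFX tumors. Control replicate 3 was again the lowest and the other control tumors were among the highest. The GCNT3 difference was 0.16 (SE 0.46) with all tumors and turned to -0.36 (SE 0.20, unadjusted limma p of 0.125) without control replicate 3.

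**Figure D1:**
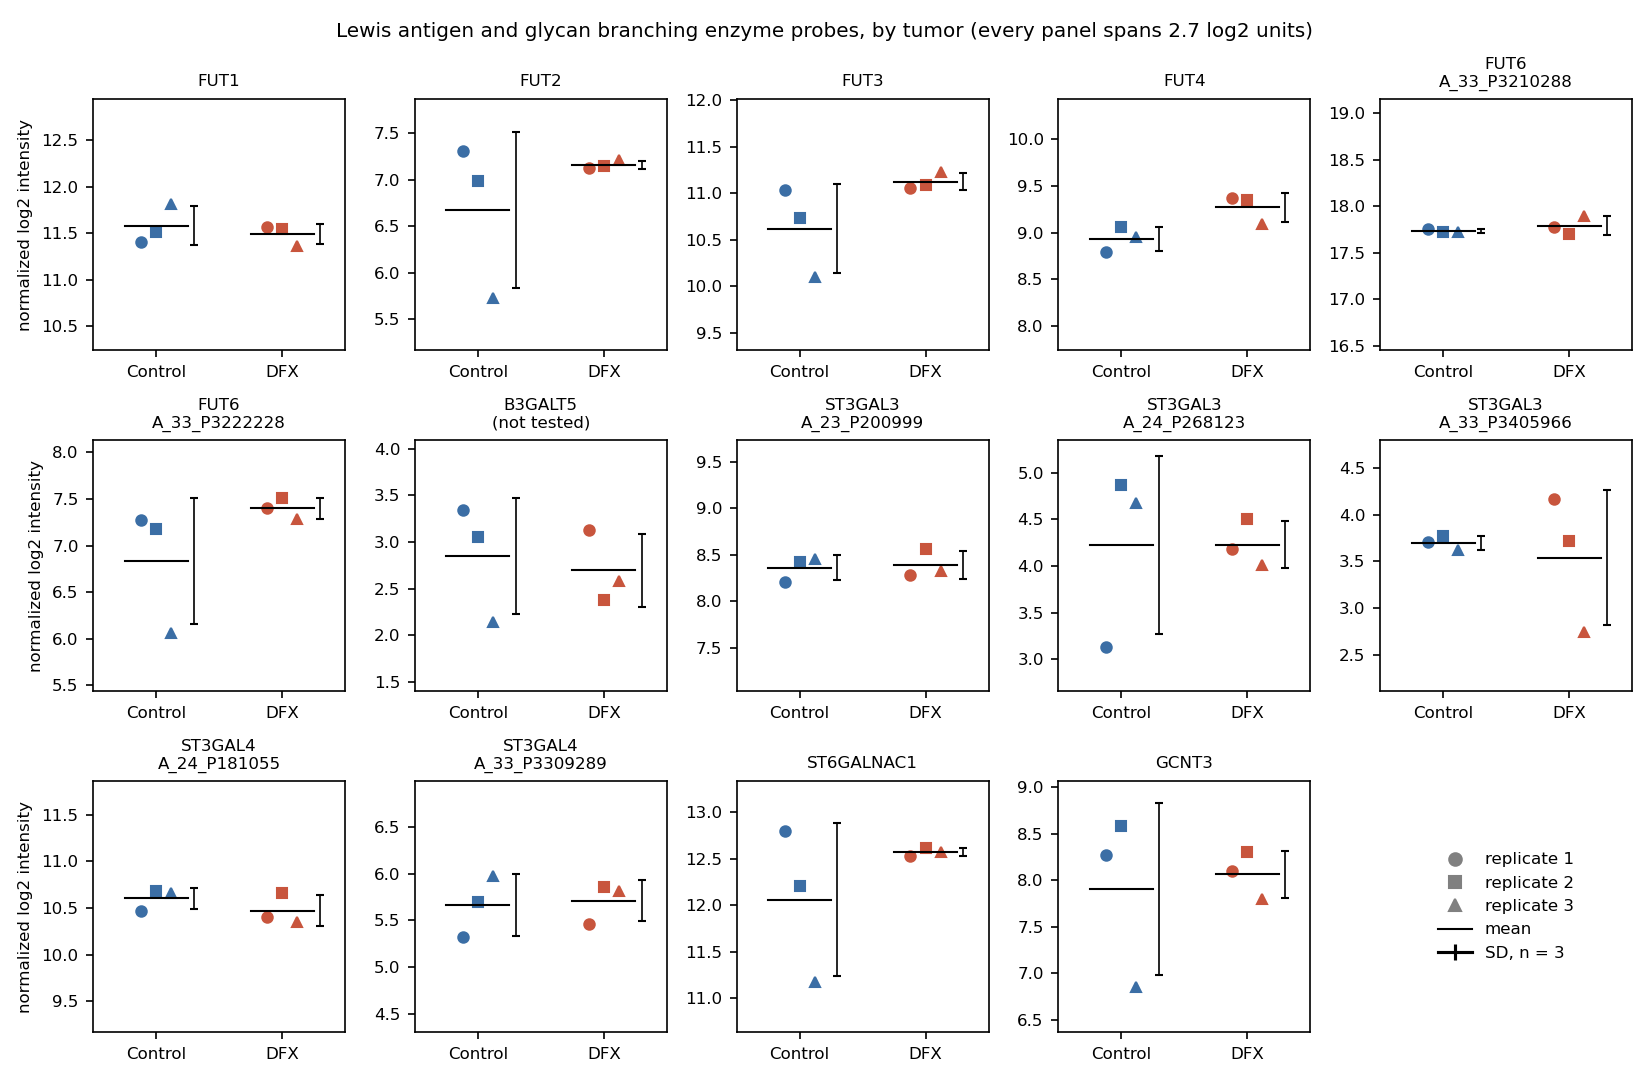
Normalized log2 intensity of each of the 14 probes in the 3 control and 3 DFX tumors, 1 panel per probe, with points for tumors, a line for the group mean and a bar for the SD (n = 3); every panel spans the same range. Control replicate 3 lies well below the other control tumors for FUT2, FUT3, FUT6 A_33_P3222228, ST6GALNAC1 and GCNT3, and the FUT4 groups do not overlap. B3GALT5 was not well above background on any array, and its order of tumors is not reliable.

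As a list, 1 of the 13 tested probes was called (7.69%), against 8.41% of all tested probes, with 3.46% called higher and 4.95% called lower. The difference was above 0 for 10 probes and below 0 for 3, with a median of 0.06 against -0.02 over all tested probes. The median size of the difference was 0.16 in both. For 3 probes (FUT3, FUT4 and FUT6 A_33_P3222228) every DFX tumor was above every control tumor, which is 23.1% against 6.34% of all tested probes, and for 0 probes the reverse held, against 9.15%. These 3 probes belong to the Lewis fucosyltransferases, which were chosen with earlier results of these data known. The median SE was 0.25 for the enzymes and 0.17 over all tested probes, so the differences of the enzymes were measured less precisely.

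**Figure D2:**
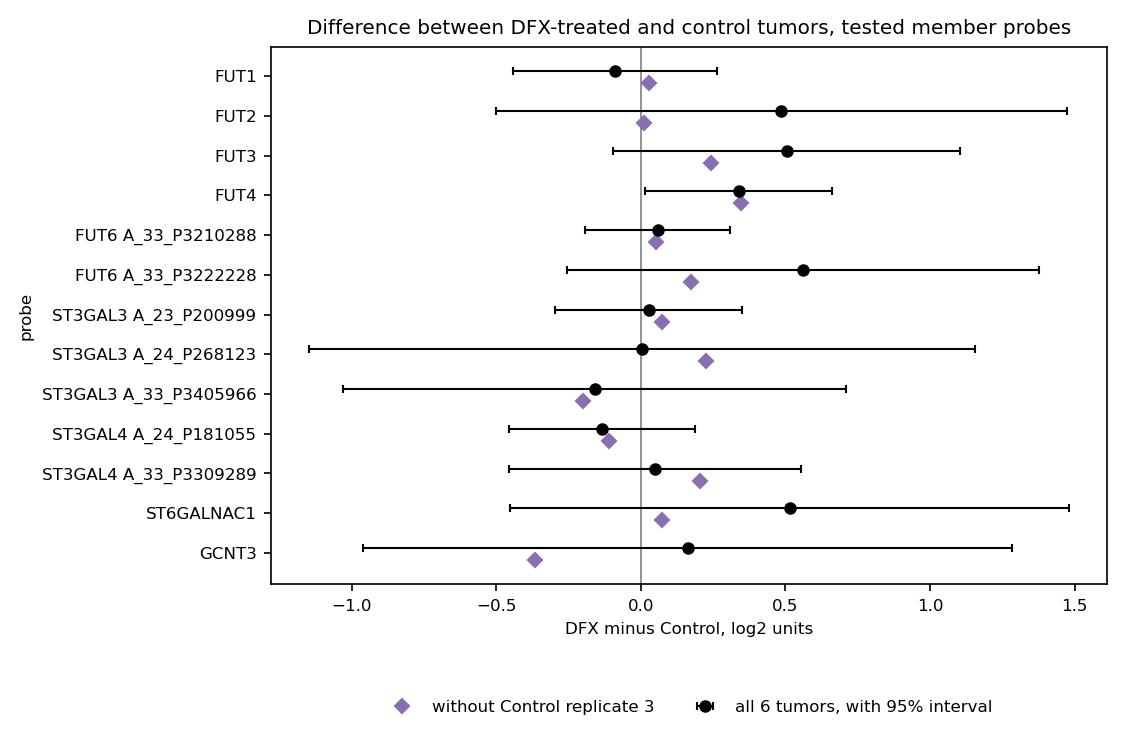
Difference in log2 intensity (DFX minus control) of each of the 13 tested probes with all tumors (black circles, with the 95% interval from limma) and without control replicate 3 (purple diamonds, no interval drawn). The interval of FUT4 lies above 0 with all tumors, and without that tumor the differences of FUT2, FUT3, FUT6 A_33_P3222228 and ST6GALNAC1 shrink and those of FUT1 and GCNT3 change sign.

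The low values of control replicate 3 were shared by 5 of the 13 tested probes. In each of these it lay more than 0.5 below both other control tumors, against 7.08% of all tested probes, a pattern that was noticed after the values were seen. It was 1.58 below the mean of the other control tumors for GCNT3, 1.42 for FUT2, 1.33 for ST6GALNAC1, 1.17 for FUT6 A_33_P3222228 and 0.78 for FUT3. FUT1, FUT4, ST3GAL3 and ST3GAL4 did not share it. Of the proteins that carry these glycans, MUC1 had levels of 13.11, 13.34 and 11.55 in control and 13.34, 13.52 and 13.27 in DFX tumors, and MUC16, a membrane-bound mucin, had 8.98, 8.15 and 5.51 against 8.55, 8.09 and 8.64. In all, 5 of 11 carriers and selectins (CEACAM5, MUC1, MUC13, MUC16 and MUC5AC) were low in control replicate 3 by the same rule, as against 7.17% of all tested genes.

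Intestinal epithelial markers were low in control replicate 3 as well. All 7 tested markers were more than 0.5 lower in control replicate 3 than in both other control tumors. This held for 0 of 6 ductal epithelial markers and for 3 of 5 fibroblast markers (COL1A1, COL1A2 and LUM). The fibroblast marker DCN went the other way and was highest in control replicate 3 (10.93, 11.45 and 12.07 in control tumors). COL3A1 had 4.93, 3.17 and 3.64 in control tumors. The summed level of the intestinal markers was 574.1 in that tumor, 2870 and 3787 in the other control tumors and 4406 to 6999 in the DFX tumors. Of these 7 markers, 6 were called higher in DFX tumors, among them CDX2 (difference 1.17), VIL1 (1.33) and KRT20 (2.46). Without control replicate 3, 5 of the 7 were still called higher, with differences of 0.77 for CDX2, 0.74 for VIL1 and 1.78 for KRT20. Of the enzyme probes low in that tumor, FUT3 differed by 0.24 and FUT6 A_33_P3222228 by 0.17 without it. FUT2 differed by 0.01, ST6GALNAC1 by 0.07 and GCNT3 by -0.36. These enzyme probes and the markers were thus low together in control replicate 3. The difference between the responses of these probes and of the markers among the other tumors was not tested. CDH17 did not pass the detection filter. Fibroblast markers summed to 1.17e+04 in control replicate 3, the lowest control value, with up to 1.91e+04 in control and 1.05e+04 to 1.31e+04 in DFX tumors. Of the 5, 2 were called, DCN lower and LUM higher. Without control replicate 3, LUM was not called and COL1A2 was called lower (-0.69, against -0.34 with all tumors). Red blood cell markers summed to 6670 to 7946 in control and 3029 to 3221 in DFX tumors, and 2 of 4 were called lower. Endothelial markers summed to 482.1 to 946.7 and 555.8 to 599.3, and 1 of 4 was called (PECAM1, higher). The part of any of these cell types in the differences of the enzymes was not tested.

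**Figure D3:**
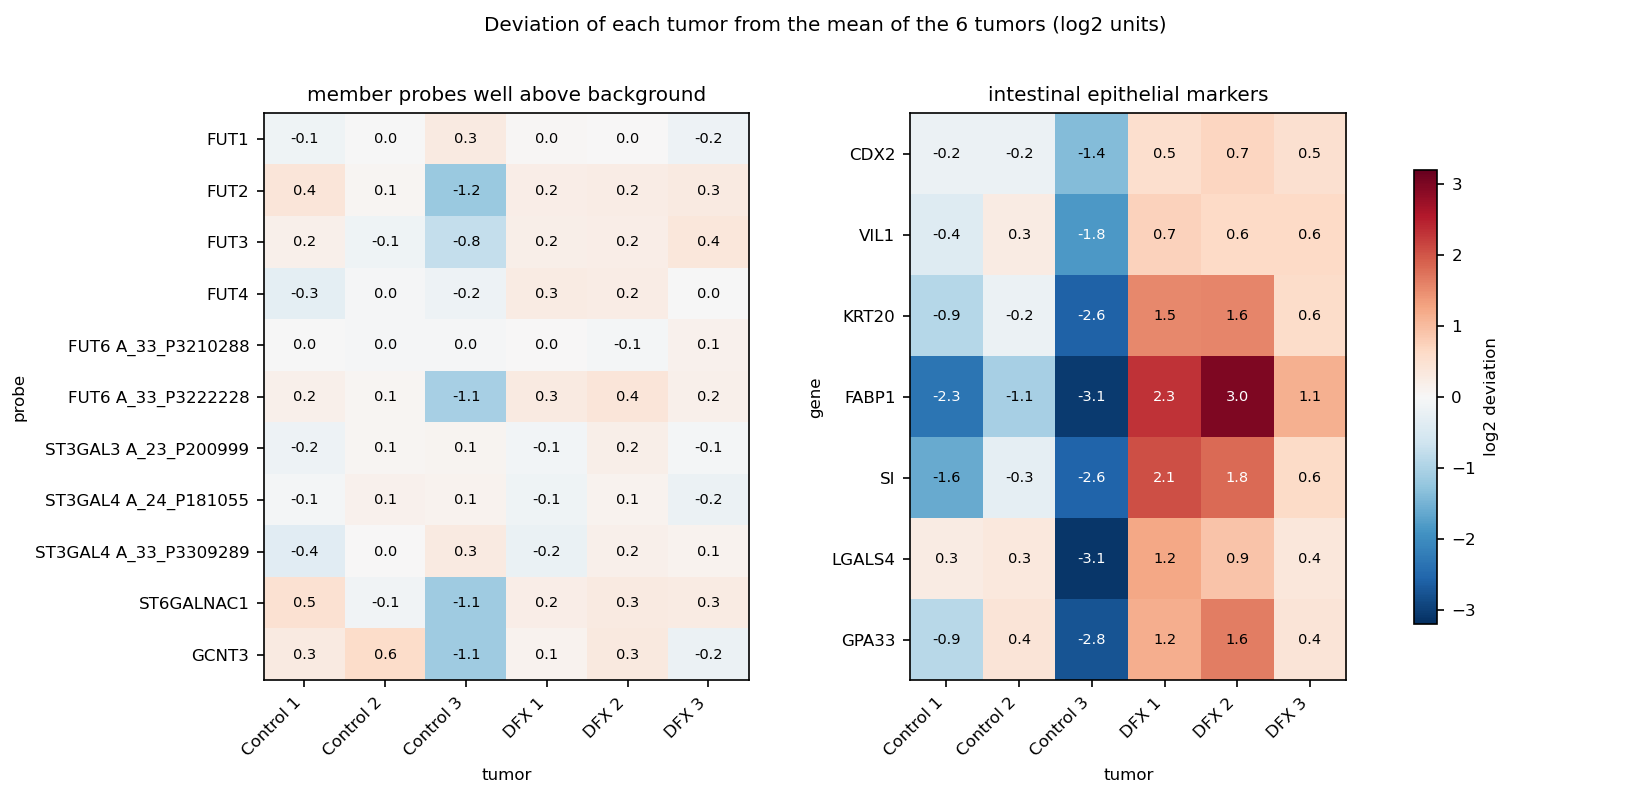
Deviation of each tumor from the mean of the 6 tumors in log2 units, for the 11 probes of the enzymes that were well above background on all arrays (left) and the 7 tested intestinal epithelial markers (right), with color from blue (lower) to red (higher). The column of control replicate 3 is blue for FUT2, FUT3, FUT6 A_33_P3222228, ST6GALNAC1, GCNT3 and all 7 markers.

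The wider pathway held 129 listed genes, of which 103 were tested and 12 had a called probe (11.7%, against 10.8% of all 22718 tested genes). Of the 12 genes, 8 were higher and 4 lower in DFX tumors, against 4.42% and 6.39% of all genes. In each the groups did not overlap on the called probe, which also held for 2438 of all 2675 called probes. The median difference on the brightest probe was 0.06, against -0.01 over all genes. GALNT10 and GAL3ST2 were among the 3 genes called in all 6 fits that left out 1 tumor. Without control replicate 3, 5 of the 12 were called, against 1610 of all 2675 called probes. Among the 5 were GALNT10, GALNT18, GAL3ST2 and ST8SIA5, whereas POFUT1, B3GNT2, B3GNT3, GALNT1, MGAT1, GAL3ST1 and CD44 were not called.

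The list of enzymes that start mucin O-glycans or build their cores gave 3 of the higher genes, out of 18 tested with none lower. This is 16.7% called, against 10.8% of all tested genes called in either direction and 4.42% called higher. GALNT10 had levels of 8.58, 8.56 and 8.69 in control and 9.13, 8.90 and 9.06 in DFX tumors, with a difference of 0.42 (SE 0.11). GALNT1 differed by 0.38 (SE 0.13), and by 0.33 without control replicate 3, where it was not called. GALNT18, listed on the array as GALNTL4, differed by 0.88 (SE 0.27). All 3 belong to the family of enzymes that transfer N-acetylgalactosamine to the protein, and the activity of each was not tested. Among the 14 chain-building enzymes, B3GNT3, which extends core 1 O-glycans, rose by 0.38 and B3GNT2, a main poly-N-acetyllactosamine synthase, fell by 0.41. Levels of B3GNT3 were 13.89, 13.91 and 13.57 in control and 14.27, 14.16 and 14.08 in DFX tumors.

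Calls in the other lists were 0 to 2 each, and 10.8% of all tested genes were called. Of 13 other sialyltransferases 1 was called (ST8SIA5, 0.71, and 0.45 without control replicate 3), of 6 other fucosyltransferases 1 (POFUT1, which adds fucose to Notch-type repeats, 0.30) and of 8 N-glycan branching enzymes 1 (MGAT1, which opens the way to complex N-glycans, -0.64). These called probes were dim. They were well above background in 2 control and 3 DFX tumors for ST8SIA5, 2 and 2 for POFUT1, and 3 and 1 for MGAT1. The brightest probe of POFUT1 gave 0.07 (SE 0.13) and that of MGAT1 -0.03 (SE 0.13), and neither was called. Of 10 caps and sulfotransferases, GAL3ST1, the sulfatide-forming sulfotransferase, was higher by 1.16 (SE 0.38), and GAL3ST2 was lower on a probe that was not well above background in either group. Of the carrier proteins, CD44 was lower by 0.44 on 1 probe and by 0.12 on its brightest. None of 15 genes of nucleotide sugar supply and none of 8 glycosidases was called.

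**Figure D4:**
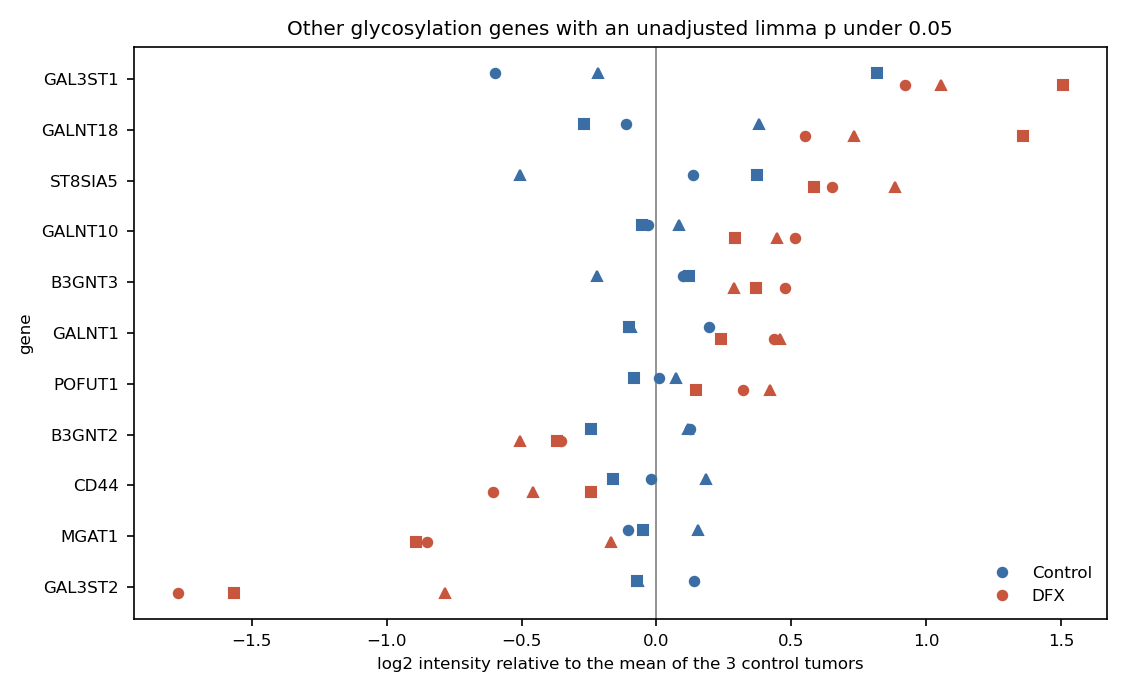
Log2 intensity of 11 of the 12 called pathway genes in each tumor, on the called probe and minus the control mean (x axis, log2 units; 1 row per gene), with control and DFX tumors in separate colors and circles, squares and triangles for replicates 1, 2 and 3. In all 11 genes the 3 DFX tumors lie on 1 side of the 3 control tumors, which also held for 2438 of all 2675 called probes.

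Promoters were read from RefSeq on GRCh38.p14 as windows from 250 bases before to 50 after each start site, which gave 13 windows for 9 of the 10 genes. The motifs below were searched on both strands by their letters, and a match is a description only. The hypoxia response core ACGTG was present in 4 of 13 windows (30.8%, in B3GALT5, FUT3, FUT4 and ST3GAL4), against 21.4% of 35116 promoter windows. The GC box GGGCGG was in 8 (61.5%, against 45%), the CDX-like TTTATG in 1 (B3GALT5, 7.69% against 10.6%) and the HNF1-type GTTAAT in 1 (GCNT3, 7.69% against 6.88%). The ACGTG match of FUT4, the ACGTG match of FUT3 nearest its start site and the GTTAAT match of GCNT3 are shown with the motif in capitals, as it reads on the strand of the gene.
FUT4 (chr11:94543803-94543831): cgcctctgctcgCACGTtcccccggcctc
FUT3 (chr19:5851480-5851508): tgctgcaatgtaCACGTacttgttcctcc
GCNT3 (chr15:59611725-59611754): aataagtaacacATTAACtgggttttccta
The motif began at position -106 from the start site in FUT4, -47 in FUT3 and -46 in GCNT3. FUT3 also held an ACGTG match at -192 and a GGGCGG match at -7, and FUT6 held no ACGTG. ST6GALNAC1 has no window here.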

How the data were processed

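RNA of 6 tumors (3 control, 3 DFX) was hybridized to one-color human arrays, and groups follow the sample labels. Each tumor is a separate sample in the labels, and p-values measure the spread between these tumors. The authors deposited, per array, spot intensities on a linear scale and a p-value of each spot against its background, written by Agilent Feature Extraction 10.7.1.1 per the file headers (the submitters' processing notes name 9.5.1.1). Their deposited table of normalized intensities lay within a median of 0.00438% of quantile-normalized linear processed signal.

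The background-subtracted processed signal of 58717 non-control spots was taken to log2 and quantile-normalized for this work. A total of 1398 outlier spot values were left out, spots were averaged per probe, and every probe was kept. Probes with a median background p under 0.05 on all 6 arrays were tested (31807). The filter also kept 1201 probes not positive and significant on every array. DFX and control tumors were tested in limma 3.58.1 (lmFit, eBayes; prior degrees of freedom 2.04) under R 4.3.3, and p-values were adjusted by Benjamini-Hochberg across every tested probe, since the methods give no test specifically for the arrays. Their Kruskal-Wallis H test, named for in vivo experiments in general, was an alternative. The procedure was tested on simulated data. The number of arrays limits the precision. The 10 genes, the pathway lists and the marker lists were chosen with earlier results of these data known. Named genes were every probe of the 10 genes and the pathway genes with a called probe and no overlap between groups, beside marker genes and carriers named after their values were seen. Symbols come from the array design, and all 10 matched RefSeq. Protein sequences were not used here, LYZ was not analysed here, and 1 called pathway gene and 1 probe sequence are not reported here. Alternatives covered normalization, background correction, filters, the authors' processed values, outlier flags, the test, array weights, blocks and each tumor left out.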

Additional observations from a re-analysis of the deposited data

How the results depend on the processing

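FUT4 kept its direction in all 20 alternatives (0.23 to 0.43) and its call in 12. The number of called enzyme probes (1) was 0 under scaling to the 75th percentile or the median and with the slide column as a block, 2 under normexp and on the raw mean signal, 3 with the Kruskal-Wallis H test, and 0 to 3 over the fits without 1 tumor (3 when control replicate 1 was dropped, and 0 when control replicate 3 or either DFX replicate 1 or 2 was dropped). Same-numbered tumors were not paired (correlations of deviations 0.027, 0.027 and 0.016). With the replicate block the enzyme calls were 0 and FUT4 gave 0.34 (unadjusted limma p of 0.0789). The Kruskal-Wallis H test uses an approximate p and called every probe without overlap, whereas an exact two-sided test of 3 against 3 cannot go below 0.1. It called 4927 probes and 21 pathway genes, against 1418 and 7 with the slide column as a block. With 1 tumor left out these were 1889 to 2717 and 7 to 12 (7 without DFX replicate 1). Adjusted calls in limma (0 of 2675) were 2 under median scaling, normexp, the raw mean signal or a filter for probes well above background, and 3 with array weights. The median difference of the enzymes (0.06) was 0.15 under 75th percentile scaling, 0.16 with that filter, 0.35 with the slide column as a block, and 0.0446 to 0.33 over the fits without 1 tumor, highest when control replicate 2 was dropped.

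Signs changed only for differences that were not called with all tumors. ST3GAL3 A_23_P200999 was -0.0775 under median scaling and ranged from -0.0592 to 0.0791 over the fits without 1 tumor. ST3GAL3 A_24_P268123 was -0.0146 under median scaling, -0.0616 under normexp, -0.0300 on the raw mean signal, -0.0502 with array weights and -0.54 to 0.33 over those fits (-0.54 when control replicate 1 was dropped, where it was called lower with an unadjusted limma p of 0.0361). ST3GAL3 A_33_P3405966 was 0.0233 on the raw mean signal, 0.0738 with array weights and -0.47 to 0.24. GCNT3 was -0.0802 with array weights and -0.36 to 0.50 over those fits, FUT1 -0.17 to 0.0295 and ST3GAL4 A_33_P3309289 -0.12 to 0.20. The cause was not tested. Signal over background limits B3GALT5 and the 2 dim ST3GAL3 probes.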
